A study of Mus musculus with 12 samples.

Results

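Loss of site-1 protease in the chondroepiphyseal cartilage was followed on 4 of the 12 arrays of the series, 2 of S1Pcko and 2 of WT cartilage, taken as the arrays whose titles carry the cartilage mark. Site-1 protease (S1P, gene Mbtps1) is a protease of the Golgi that makes the first cut in transcription factors held in the membranes of the ER and Golgi. Its substrates include the SREBPs, which enter the nucleus after cleavage to switch on genes of cholesterol and fatty acid synthesis, and ATF6, which does so for chaperones of the ER. Chondrocytes secrete very large amounts of collagen and proteoglycan, so both arms matter to them. The S1Pcko embryos were S1P f/f;Col2-Cre, in which the Cre recombinase is driven by Col2 and thus acts in cartilage cells. The WT label covers littermates of 3 genotypes, namely S1P f/+;Col2-Cre, S1P f/+ without Cre and S1P f/f without Cre, so that some controls may have carried Cre or 1 deleted allele. All embryos were of the C57BL/6 strain at E16.5. The cartilage had been broken from the tips of the long bones of both limb pairs, after muscle and vessels were removed by rolling on filter paper.

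Arrays 1919 (WT) and 1920 (S1Pcko) carry no amplification mark, while 1927 (WT) and 1928 (S1Pcko) are marked as a second amplification of cRNA. From the embryo counts in the legends, cartilage of each genotype seems to come from a single embryo, so the replicates are amplification rounds and not animals. The p values therefore leave out the spread between embryos, and genotype and embryo cannot be told apart. Entire long bones, with 3 arrays per genotype, entered the model beside cartilage and serve as the comparison tissue. Long bone arrays 1929 (WT) and 1930 (S1Pcko) also carry the second amplification mark, so these 3 arrays per genotype are not 3 independent samples either. A probe was tested when its signal exceeded that of the negative controls (detection p under 0.05) on at least 2 of the 4 cartilage arrays, which left 21477 of 46643 probes and 11771 named genes. A gene was read from its brightest probe, on a normalized log2 intensity scale on which the lowest detected probe of an array lay at 5.04 to 5.08. The words rose and fell mark genes with an adjusted p below 0.05 (limma, Benjamini-Hochberg), a mean change of 2-fold or more and one direction in both rounds, and such genes are called.

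The 4 arrays detected between 20662 and 21093 probes, and the 2 arrays of one genotype correlated with r = 0.9887 in WT and 0.9877 in S1Pcko, against 0.9725 and 0.9712 between the genotypes within a round (a description across probes). Arrays of one genotype differed by 2-fold or more at 108 and 120 probes, and arrays of different genotypes at 817 and 914. Genes of chondrocytes were bright on these arrays. Col2a1, the chain of type II collagen, lay at 14.22 and 14.11 in WT and at 14.48 and 14.50 in S1Pcko. Sox9, the master transcription factor of chondrocytes, lay at 14.16 and 14.10 against 13.94 and 13.82. Entire long bones, which hold cartilage too, had Col2a1 at 14.175 to 14.503 and Sox9 at 12.845 to 13.788. The Col2a1 level therefore does not tell the cartilage arrays from long bone. Mbtps1 itself lay at 8.89 and 9.04 on the WT arrays and at 8.62 and 8.88 on the S1Pcko arrays. The lower WT array and the higher S1Pcko array nearly met, and the change of -0.22 (SE 0.23, adjusted p = 0.63) did not pass, nor did that of its other probe (0.06, adjusted p = 0.88). Whether either probe reads the deleted part is not known, so neither value checks the genotype.

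In S1Pcko cartilage 148 genes rose (1.26% of those tested) and 197 fell (1.67%). Of the rises, 30 were 4-fold or more, and of the falls 21, although the falls were the more numerous. The median change of the risers was 1.37 on the log2 scale (1.35 with genes that WT did not detect at their bounds) and that of the fallers -1.30 (-1.24 with bounds). At 2-fold or more in each round separately, 125 genes rose (1.06%) and 153 fell (1.3%). The WT and S1Pcko values did not overlap for any of the 345 called genes, nor for 54.9% of all genes tested. Without array 1919, 1927, 1920 or 1928 the rises numbered 101, 90, 110 and 105, and the falls 83, 91, 124 and 97. When the amplification rounds were averaged, so that each genotype counted once and the spread came from long bone, 11 genes rose (0.0935%) and 3 fell (0.0255%). The 11 were Fgf21, Otog, Fibcd1, Avil, Cdsn, Trib3, Slc7a3, Inhbe, Ddit3, B4galnt2 and Cyb5r2, and the 3 were Sparc, Krtap13 and 2310034C09Rik, some of them named here after their values were seen.

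**Figure D1:**
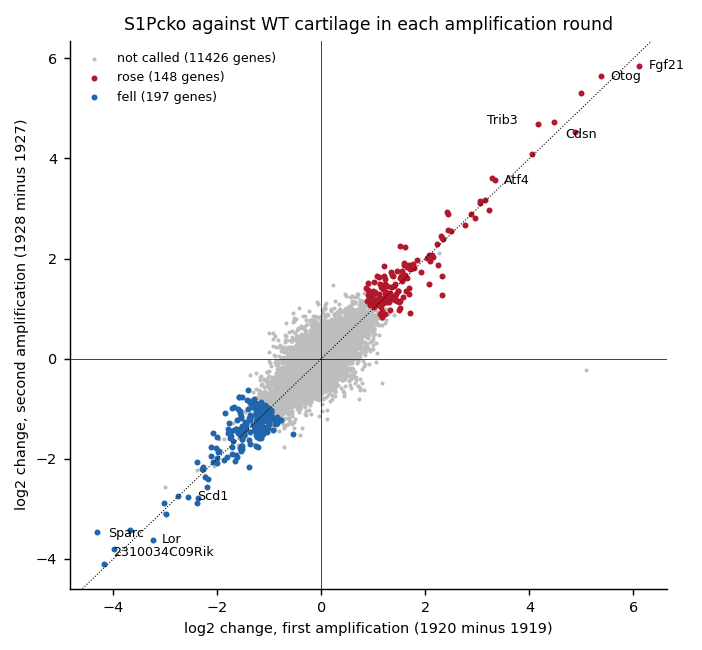
Change between S1Pcko and WT cartilage in the first amplification (horizontal axis, array 1920 minus 1919, log2) and in the second (vertical axis, array 1928 minus 1927, log2), 1 point per gene, with the 148 genes that rose in red, the 197 that fell in blue, the others in grey and the line of equal change dotted. The called genes lie along the dotted line, from 2310034C09Rik at -4.18 and -4.09 to Fgf21 at 6.11 and 5.86.

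The largest rise was that of Fgf21, a hormone that cells release under starvation and ER or mitochondrial stress. It lay at 4.41 and 4.43 on the WT arrays, below detection, and at 10.52 and 10.29 on the S1Pcko arrays. The gene was thus silent to the array in WT and at least 40.8-fold higher in S1Pcko (adjusted p = 1.48e-08), where this lower bound sets the S1Pcko mean against the lowest signal that counted as detected. Otog, which encodes otogelin, a glycoprotein known from the gel matrices of the inner ear, lay at 5.20 and 5.47 in WT and at 10.58 and 11.12 in S1Pcko. It rose by 5.51 on the log2 scale (SE 0.28, adjusted p = 1.94e-06). Fibcd1, a receptor for acetylated groups, was undetected in WT and at least 27.4-fold higher, and Cdsn, the adhesion protein corneodesmosin of the skin surface, at least 16.3-fold higher. Avil, a member of the villin family of actin-binding proteins, lay at 4.59 and 5.17 in WT and at 9.47 and 9.71 in S1Pcko. The genotypes of Otog and Avil lay more than 4 log2 units apart in both rounds, and 1 of the 2 WT arrays did not detect Avil. Other large rises were those of Cxadr, a receptor of cell junctions (3.44, with at least 1.19-fold and no call on its other probe), Lcn2, an iron-binding lipocalin (3.16), and B4galnt2, a glycosyltransferase (at least 4.66-fold). Lcn2 lay at 6.33 and 6.34 in WT against 9.48 and 9.52, but it did not pass without array 1919, 1927 or 1928 (adjusted p = 0.054, 0.053 and 0.051).

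**Figure D2:**
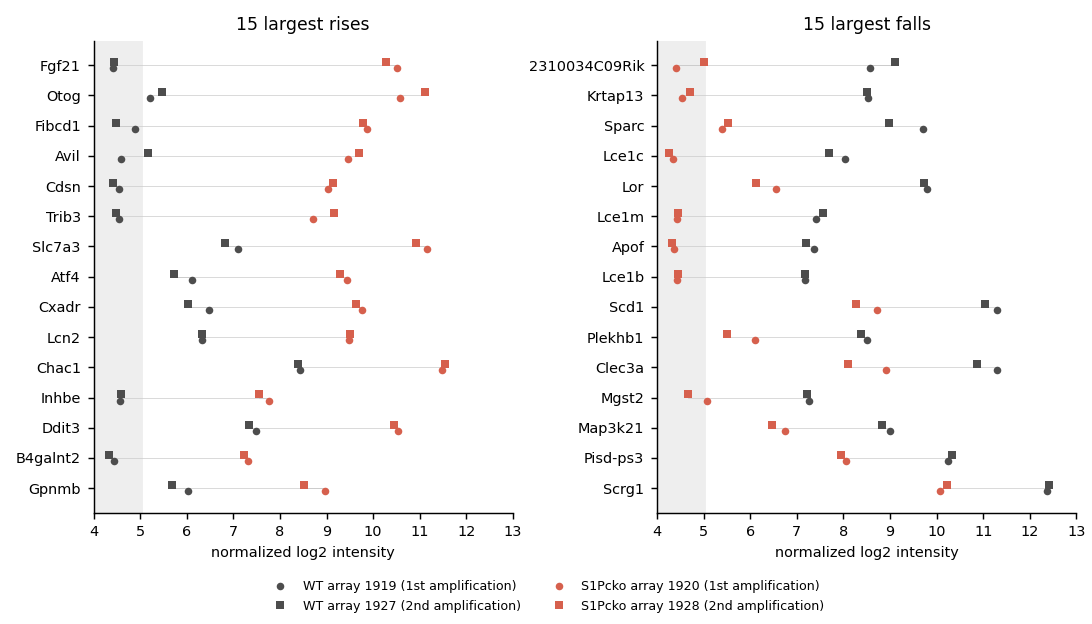
Normalized log2 intensity (horizontal axis) of the 15 genes with the largest rises (left) and falls (right) among genes changed by 2-fold or more in each round, with WT in grey, S1Pcko in red, the first amplification as circles and the second as squares. The shaded band marks levels below 5.04, where no probe was detected. For every gene shown the genotypes lie further apart than the arrays of one genotype, and WT lies in the band for Fgf21, Fibcd1, Cdsn, Trib3, Inhbe and B4galnt2.

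Genes of the ATF4 response made up a large share of the rises. ATF4 is a transcription factor that cells translate when the kinases of the integrated stress response slow protein synthesis, and it switches on genes that import and make amino acids, charge tRNAs and, through DDIT3 (CHOP), bear on cell survival. Of 9 genes of its transcriptional core tested, Atf4 included, 7 rose and none fell, with a median change of 1.98 (1.75 with bounds) against 0.01 over all genes tested. Trib3, a pseudokinase that restrains ATF4, was below detection in WT (4.55 and 4.47) and at 8.71 and 9.16 in S1Pcko, at least 14.7-fold higher (adjusted p = 3.08e-06). Ddit3, the proapoptotic factor CHOP, lay at 7.48 and 7.33 in WT and at 10.53 and 10.44 in S1Pcko. It rose by 3.08 (SE 0.18, adjusted p = 6.30e-06), and the S1Pcko arrays lay some 3 log2 units above both WT arrays. Nupr1, a small nuclear stress protein, rose by 2.08, Atf5 by 1.75 and Cebpb by 1.45, while Atf3, undetected in WT, was at least 2.78-fold higher. Cebpb did not pass without array 1919 or 1928 (adjusted p = 0.096 and 0.092), and Cebpg (0.73) and Jdp2 (0.55) were not called. Atf4 itself lay at 6.10 and 5.72 in WT against 9.45 and 9.29 in S1Pcko on one probe, a rise of 3.46, and at 5.85 and 5.82 against 5.95 and 6.08 on its other probe (0.18, adjusted p = 0.59). The probes of Atf4 thus disagreed, and the files do not say which transcripts each reads. In long bone the probe with the rise lay between 9.035 and 9.575 on the WT arrays and between 10.055 and 10.544 on the S1Pcko arrays. On this probe the WT cartilage arrays were thus the low ones among all 10 arrays.

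Secreted products of the stress response rose in each of the 5 genes tested. Beside Fgf21, Inhbe, the beta E chain of activins, was undetected in WT (4.56 and 4.58) and at 7.77 and 7.55 in S1Pcko, at least 6.10-fold higher. Angptl6, an angiopoietin-like growth factor, rose by 2.50 (SE 0.19), Stc2, the glycoprotein stanniocalcin 2, by 2.36 (SE 0.38) and Adm2, a peptide of the calcitonin family, by 1.53 (SE 0.31). These 5 genes code for hormones or local signals rather than for enzymes or matrix. Stc2 did not pass without array 1919 (adjusted p = 0.050), nor Adm2 without 1919, 1927 or 1928 (adjusted p = 0.11, 0.092 and 0.15).

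Genes of amino acid uptake, synthesis and tRNA charging were called in the rising direction alone, where 1.26% of all genes tested rose. Of 9 amino acid transporters tested 5 rose and none fell (median 1.34), of 10 enzymes of serine, one-carbon, asparagine and proline synthesis 6 rose (median 1.14, 1.06 with bounds), and of 18 cytosolic aminoacyl-tRNA synthetases 4 rose (median 0.68, 0.56 with bounds). Slc7a3, which carries cationic amino acids, lay at 7.10 and 6.82 in WT and at 11.15 and 10.91 in S1Pcko, a rise of 4.08 (SE 0.22, adjusted p = 3.53e-06). The glycine carrier Slc6a9 rose by 2.52, Slc7a5, which takes up leucine and other large neutral amino acids, by 2.26, Slc1a5 by 1.38 and the cystine carrier Slc7a11 by 1.34. Among the enzymes, Asns, which makes asparagine, lay at 9.71 and 9.40 in WT and at 11.34 and 11.27 in S1Pcko and rose by 1.75, as did the alanine transaminase Gpt2. Aldh1l2, Mthfd2 and Shmt2 of mitochondrial one-carbon metabolism rose by 1.30, 1.15 and 1.14, and Cth, which makes cysteine, was at least 1.56-fold higher with WT below detection. Psat1 of serine synthesis was higher by 0.98, just under 2-fold, and Phgdh had a change of 0.48 (adjusted p = 0.41). The 4 synthetases that rose were those for cysteine (Cars, 1.64), serine (Sars, 1.26), alanine (Aars, 1.17) and isoleucine (Iars, 1.09), and 16 of the 18 lay above WT. Cth did not pass without array 1919, 1927 or 1920 (adjusted p = 0.11 each), Shmt2 without 1919 or 1928 (0.065 and 0.069), and Iars without any single cartilage array (0.10 to 0.22) or long bone array 1924 (0.052).

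Of 6 tested genes of the list of brakes on mTORC1 and translation, 2 rose and the other 4 were not called. The share of risers among all genes tested was 1.26%. Eif4ebp1, which blocks cap-dependent initiation, rose by 1.35. Ppp1r15a (GADD34), which is itself no brake but restores translation by dephosphorylating eIF2 alpha, rose by 1.90. Chac1, which breaks down glutathione, lay at 8.43 and 8.39 in WT and at 11.48 and 11.54 in S1Pcko and rose by 3.10 (SE 0.20, adjusted p = 1.54e-05). Its increase of more than 3 log2 units stood on both arrays. Apart from Chac1, the glutathione and oxidant defence list (13 tested, median 0.11) held 1 riser, the transferase Gsta4 (1.27), which did not pass without any single cartilage array (adjusted p = 0.087 to 0.16). Several genes of the ATF4 lists were named by the study from these same arrays, so their counts are not independent evidence.

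Promoters of the rising ATF4 genes were searched for TTNCATCA, the core of the composite site that ATF4 shares with C/EBP factors, on either strand. Windows ran from 250 bases before to 50 bases after the annotated start and came from RefSeq (GRCm38.p6). Of the 57 tested members of 6 lists, risers or not, 43 had a window and 14 of these held the motif (32.6%). Of the 29 risers in these lists (ATF4 factors, secreted products, transporters, biosynthesis, tRNA synthetases and brakes), 22 had a window and 9 of those held the motif (40.9%), namely those of Aars, Asns, Atf3, Fgf21, Iars, Inhbe, Nupr1, Slc7a11 and Trib3. The share was 16.4% of the 116 windows of all risers, 2.56% of the 156 windows of fallers, 2.44% of the 9493 windows of genes tested and 4.06% of all 27025 windows. Of the 116 windows of all risers 19 held the motif, and those outside the 6 lists included Avil, Cyb5r2 and Chac1. A match of 8 letters is a description and not a bound site. The windows of 4 risers are shown 5′ to 3′ on the strand of the gene, because they carry the motif (in capitals) in different places and on both strands, with a pair of matches in Slc7a11:
Fgf21 (chr7:45615441-45615740, minus strand): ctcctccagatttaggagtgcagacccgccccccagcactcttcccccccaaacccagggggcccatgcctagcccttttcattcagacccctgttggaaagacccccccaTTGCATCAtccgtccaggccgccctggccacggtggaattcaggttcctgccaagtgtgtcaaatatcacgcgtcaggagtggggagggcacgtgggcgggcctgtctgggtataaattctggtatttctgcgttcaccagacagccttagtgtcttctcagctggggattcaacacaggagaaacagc
Trib3 (chr2:152344011-152344310, minus strand): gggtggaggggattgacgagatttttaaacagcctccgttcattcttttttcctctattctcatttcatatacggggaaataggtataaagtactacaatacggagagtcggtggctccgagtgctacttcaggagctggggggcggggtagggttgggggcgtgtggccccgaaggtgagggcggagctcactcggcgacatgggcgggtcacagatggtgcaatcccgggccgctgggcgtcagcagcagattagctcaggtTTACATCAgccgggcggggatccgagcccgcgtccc
Asns (chr6:7693160-7693459, minus strand): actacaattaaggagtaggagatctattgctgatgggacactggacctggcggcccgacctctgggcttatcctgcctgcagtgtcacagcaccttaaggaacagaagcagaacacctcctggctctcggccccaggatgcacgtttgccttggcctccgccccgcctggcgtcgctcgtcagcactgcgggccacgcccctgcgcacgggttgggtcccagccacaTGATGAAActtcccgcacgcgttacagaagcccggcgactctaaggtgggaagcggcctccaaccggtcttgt
Slc7a11 (chr3:50443564-50443863, minus strand): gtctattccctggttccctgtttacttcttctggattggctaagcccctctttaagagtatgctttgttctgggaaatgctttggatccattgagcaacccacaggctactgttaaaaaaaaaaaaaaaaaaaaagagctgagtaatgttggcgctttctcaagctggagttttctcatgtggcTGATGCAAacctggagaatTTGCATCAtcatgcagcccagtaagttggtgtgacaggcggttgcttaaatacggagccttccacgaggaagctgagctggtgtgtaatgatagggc

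Of 16 tested genes of cholesterol synthesis, 10 fell and none rose, against 1.67% that fell over all genes tested. The pathway builds mevalonate and isoprenoid units in its first steps, joins them to squalene, and closes and trims the rings to cholesterol, and its enzymes are the classic targets of SREBP2. Of 6 tested genes of the mevalonate steps 3 fell (median -1.03), of 10 tested enzymes from squalene to cholesterol 7 fell (median -1.11). All 10 tested enzymes from squalene onward, of 11 listed, were lower in S1Pcko on both rounds. Of 10 listed mevalonate genes 8 had a named probe, and of these Idi1 and Fdft1 were undetected on all 4 arrays. Fdps, which makes farnesyl diphosphate, lay at 12.22 and 12.38 in WT and at 10.77 and 10.98 in S1Pcko, a fall of 1.42 (SE 0.18, adjusted p = 0.0013). Hmgcs1, which commits acetyl units to the pathway, lay at 13.43 and 13.10 against 12.18 and 11.75, and Mvd, the mevalonate decarboxylase, at 8.05 and 8.35 against 6.46 and 6.86. Neither gene had overlapping genotypes, which held for every called gene and for 54.9% of all genes tested. Pmvk (-0.77) and Mvk (-0.66) were not called, and Ggps1, which leads isoprenoids away from sterols to protein prenylation, had a change of 0.61 in the other direction (adjusted p = 0.065).

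Past squalene, Msmo1, a sterol C4 methyl oxidase, had the largest fall, from 11.93 and 12.06 in WT to 9.96 and 10.19 in S1Pcko (-1.92, SE 0.15, adjusted p = 4.94e-05). Lss, the cyclase that forms lanosterol, fell by 1.54, Cyp51 by 1.27, Hsd17b7 by 1.21, Nsdhl by 1.12, Sqle, the epoxidase that opens this stretch, by 1.11 and Dhcr7, the last reductase, by 1.07. The uncalled members were Sc5d (-0.72), Ebp (-0.66) and Tm7sf2 (-0.44). Mvd and Dhcr7 did not pass without array 1927 (adjusted p = 0.076 and 0.084) or 1920 (0.066 and 0.068), nor Hmgcs1 without 1919, 1927 or 1928 (0.12, 0.053 and 0.13). For the window of Hmgcs1, the 1 promoter among the 12 windows of the sterol and fatty acid genes that fell which holds TCACNCCAC, the core of the sterol regulatory element (8.33%, against 2.86% of the 35 windows of these lists, 2.56% of the windows of all fallers, 1.09% of those of genes tested and 1.22% of all windows), the match is in capitals:
Hmgcs1 (chr13:119690101-119690400, plus strand): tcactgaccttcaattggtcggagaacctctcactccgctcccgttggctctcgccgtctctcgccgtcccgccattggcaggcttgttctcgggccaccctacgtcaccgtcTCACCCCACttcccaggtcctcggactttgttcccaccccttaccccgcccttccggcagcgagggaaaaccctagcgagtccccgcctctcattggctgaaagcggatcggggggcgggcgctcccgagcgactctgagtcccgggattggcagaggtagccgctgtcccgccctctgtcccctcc

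**Figure D3:**
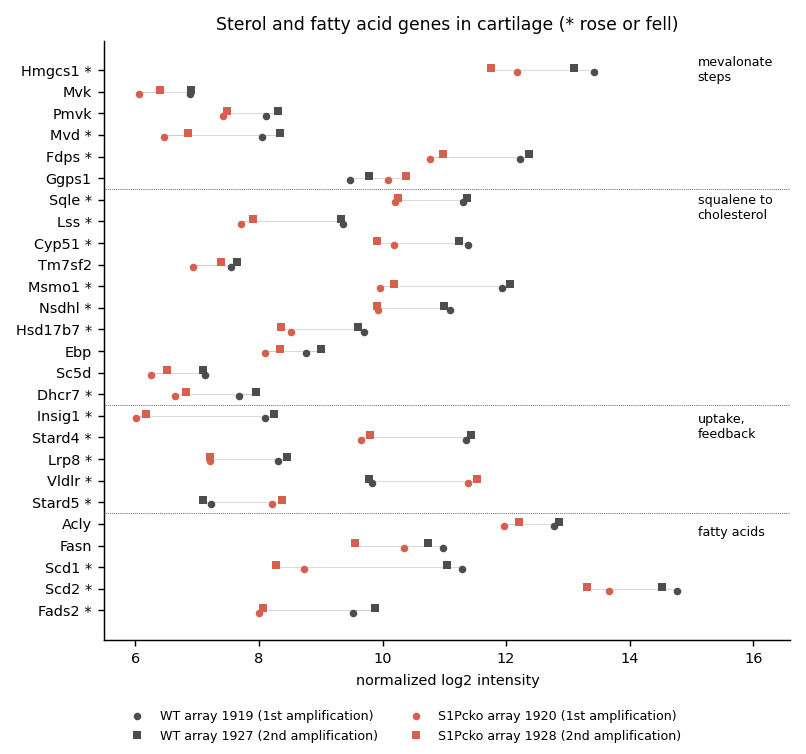
Normalized log2 intensity (horizontal axis) of 26 sterol and fatty acid genes in the order of their pathways, with WT in grey, S1Pcko in red, circles for the first and squares for the second amplification, and an asterisk for genes that rose or fell. S1Pcko lies to the left of WT for all enzymes of sterol synthesis shown except Ggps1, and to the right for Vldlr and Stard5.

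Genes of sterol uptake and feedback were split. Insig1, which holds the SREBPs in the ER when sterols are plentiful, lay at 8.10 and 8.24 in WT and at 6.01 and 6.18 in S1Pcko, a fall of 2.07 (SE 0.17, adjusted p = 6.79e-05), with -1.94 on its other probe. Stard4, a carrier of cholesterol between membranes, fell by 1.67, and Lrp8, an apolipoprotein E receptor, by 1.17. The call on Lrp8 was lost when 1927 was left out (adjusted p = 0.053). In contrast Vldlr, the receptor of very low density lipoprotein, rose from 9.83 and 9.78 to 11.38 and 11.54 (1.66, SE 0.18, adjusted p = 4.51e-04), and Stard5, a lipid transfer protein that ER stress is known to induce, rose by 1.13. Stard5 did not pass without array 1919, 1927 or 1928 (adjusted p = 0.051, 0.074 and 0.079). The LXR list holds the LXR receptors and targets that rise when sterols are in excess. It had no call among 5 genes tested, the lowest being Lpcat3 at -0.99 (adjusted p = 0.040). The targets Abca1 and Mylip were undetected on all 4 arrays and could not be read. Of the processing machinery itself, Srebf2 (SREBP2) was lower by 0.90 (adjusted p = 0.021), under the 2-fold threshold, and Scap, the escort of the SREBPs, had a change of 0.39 (adjusted p = 0.26). Srebf1 was not detected on any cartilage array, and Mbtps2 on 1 of the 4.

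Fatty acid genes that fell included the desaturases Scd1, Scd2 and Fads2, while the desaturases Fads1 and Fads3 were tested and not called. Of 20 tested genes 4 fell and none rose (median -0.52), against 1.67% that fell over all genes tested. Scd1, which puts the first double bond into stearate, lay at 11.29 and 11.04 in WT and at 8.73 and 8.28 in S1Pcko, a fall of 2.66 (SE 0.24, adjusted p = 1.41e-04). Fads2, a desaturase of polyunsaturated fatty acids, fell by 1.67, Scd2 by 1.15 and Idh1, a source of NADPH in the cytosol, by 1.00. Of the enzymes that build the chain, Fasn had -0.90 (adjusted p = 0.11) and Acly -0.73 (adjusted p = 0.049), and neither was called. Scd2 fell short of 2-fold without array 1928 (-0.97), and Idh1 did not pass without any single cartilage array (adjusted p = 0.053 to 0.087). Adipocyte markers summed to 2071.5 to 2107.2 in WT and 1476.7 to 1510.5 in S1Pcko with no call among 3 tested, Adipoq being detected on the WT arrays alone, and their part in the fatty acid genes was not tested.

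Among the structural products of cartilage, the collagens and the smaller matrix proteins differed. None of 7 cartilage collagens was called, and Col2a1 had a change of 0.32 (adjusted p = 0.26) on its brightest probe, with 0.05 and -0.43 on the others. Col11a1 lay at 9.84 and 10.37 in WT and at 9.16 and 9.05 in S1Pcko (adjusted p = 0.12), and Col9a2 had a change of -0.78 (adjusted p = 0.25). In contrast, 4 of 18 cartilage proteoglycans and matrix glycoproteins fell and none rose, with a median of -1.03 (-0.91 with bounds). The share of fallers among all genes tested was 1.67%. Lum and Fmod, the small leucine-rich proteoglycans lumican and fibromodulin that bind collagen fibrils, fell by 1.49 (SE 0.21) and 1.63 (SE 0.31). Lum lay at 11.33 and 11.36 in WT against 10.12 and 9.60. Hapln3, a hyaluronan link protein, was undetected in S1Pcko and at least 2.07-fold lower. Several abundant members had changes of that size that the test did not pass: Hapln1, the main link protein (-1.50, adjusted p = 0.073), Mia (-1.36, 0.056), Chad (-1.34, 0.055) and Prelp (-1.30, 0.059), and Ucma of the upper growth plate (-2.28, 0.12). Aggrecan (Acan, -0.31) and Comp (-0.77) were not called either. Fmod did not pass without any single cartilage array (adjusted p = 0.066 to 0.096).

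Sparc, the collagen-binding glycoprotein osteonectin, had the largest fall in the matrix list. It lay at 9.70 and 8.98 in WT cartilage and at 5.39 and 5.52 in S1Pcko cartilage, a change of -3.89 (SE 0.25, adjusted p = 1.54e-05) on its only tested probe. In entire long bones the same probe lay between 9.43 and 9.98 on the WT arrays and between 9.31 and 9.61 on the S1Pcko arrays. The S1Pcko cartilage arrays were thus the low ones among all 10 arrays, by more than 3 log2 units. Other large falls were those of Clec3a, a lectin made by cartilage (-2.58), and Scrg1, a secreted protein of chondrocytes (-2.25), at 12.37 and 12.42 in WT against 10.08 and 10.21. Clec3a and Scrg1 did not pass without any single cartilage array (adjusted p = 0.076 to 0.21 and 0.080 to 0.091), and Clec3a not without long bone arrays 1923, 1930 or 1924 (0.054, 0.050 and 0.052). Outside the matrix, Apof, an apolipoprotein, was at least 4.67-fold lower and undetected in S1Pcko, and Plekhb1 (-2.63), the microsomal glutathione transferase Mgst2 (-2.38) and the kinase Map3k21 (-2.30) fell in both rounds. The single largest fall was that of 2310034C09Rik, at 8.58 and 9.10 in WT and below detection in S1Pcko, at least 13.7-fold lower.

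Enzymes that sulfate chondroitin, the sugar chain that gives cartilage its charge, included 2 of the fallers among 15 genes tested (median -0.36). For this count and that of the glycogen genes below, the share of fallers among all genes tested was 1.67%. Chst11, the main chondroitin 4-O-sulfotransferase of the growth plate, lay at 9.78 and 10.16 in WT and at 8.13 and 8.75 in S1Pcko (-1.53, SE 0.39, adjusted p = 0.045), with -1.44 and a call on its other probe. Its relative Chst12 fell by 1.13 (SE 0.29, adjusted p = 0.047). The sulfate carrier Slc26a2 (-0.95, adjusted p = 0.072) and the chain-starting enzyme Csgalnact1 (-0.76, adjusted p = 0.15) were not called. Both sulfotransferase calls stood near the threshold and did not pass without any single cartilage array (adjusted p = 0.10 to 0.21 for Chst11, 0.13 to 0.22 for Chst12), nor without long bone arrays 1923, 1930 and 1924 for Chst11 (0.062, 0.062 and 0.053) and 1929 and 1930 for Chst12 (0.058 and 0.067). Of 15 glycogen genes 2 fell: Ppp1r3b, which targets phosphatase 1 to glycogen and so favours its synthesis, from 9.32 and 9.58 to 7.20 and 7.63 (-2.04, SE 0.23, adjusted p = 6.39e-04), and Pygl, a phosphorylase that breaks glycogen down (-1.67). Ppp1r3c, a relative of Ppp1r3b, had -0.69 (adjusted p = 0.14). Pygl did not pass without any single cartilage array (adjusted p = 0.075 to 0.10).

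Indian hedgehog signalling, which paces the change from proliferating to hypertrophic chondrocytes, was lower at its ligand. Ihh lay at 8.77 and 9.60 in WT and at 7.10 and 7.57 in S1Pcko (-1.85, SE 0.43, adjusted p = 0.032), and at -1.79 without a call on its other probe. Hhip, a membrane protein that the pathway induces and that binds the ligand, fell by 1.19, and Ptch1, the receptor and another target, had -0.78 (adjusted p = 0.063). The 2 calls among 8 genes tested went one way, and all 8 lay below WT (median -0.20). Among all genes tested 1.67% fell. Ihh did not pass without any single cartilage array (adjusted p = 0.066 to 0.19), and Hhip not without 1927 or 1920 (0.062 and 0.050). Of the hypertrophic genes, Col10a1, the type X collagen chain that defines the stage, had -1.22 (adjusted p = 0.25), Alpl 0.87 (adjusted p = 0.12), and Ibsp, bone sialoprotein, rose from 9.31 and 9.21 to 11.45 and 11.24 (2.08, SE 0.23, adjusted p = 5.53e-04). Ibsp is also made by osteoblasts.

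None of 10 chondrocyte transcription factors, 11 FGF, 12 BMP or 10 insulin-like growth factor genes was called (medians 0.05, 0.02, -0.29 and 0.17). In the BMP list Bmp7 came nearest, at -0.98 (adjusted p = 0.029). Of 12 Wnt genes, Ccn2 (connective tissue growth factor) fell by 1.28 and Wif1, a secreted Wnt inhibitor, by 1.03. Among all genes tested 1.26% rose and 1.67% fell. Ccn2 did not pass without array 1919, 1927 or 1928 (adjusted p = 0.075, 0.084 and 0.10), and Wif1 fell short of 2-fold without 1919 or 1920. In the cell cycle list none of 21 genes was called (median -0.23, 18 lower), and Cdkn1a (p21), which halts the cycle, rose by 1.31 as the 1 call among 15 p53 and apoptosis genes. Cdkn1a did not pass without array 1919 or 1928 (adjusted p = 0.080 each). No call was made among 17 genes of glycolysis and hypoxia (median -0.15).

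Machinery of the ER, the compartment whose stress response S1P helps to start through ATF6, had 1 fall and no rise in each of 4 lists. Over all genes tested 1.67% fell. Of 14 chaperones and folding enzymes 1 fell and none rose (median -0.14), of 18 translocation and degradation genes 1 fell (median -0.07), of 18 COPII and procollagen export genes 1 fell (median -0.14), and of 15 procollagen hydroxylases and processing enzymes 1 fell (median -0.45). Hspa5, the chaperone BiP, lay at 6.57 and 6.51 in WT and at 5.63 and 5.99 in S1Pcko (-0.73, adjusted p = 0.15), and Hyou1 at 6.58 and 6.69 against 7.25 and 7.53 (0.75, adjusted p = 0.16). These members thus leaned in opposite directions, and neither was called. The 4 fallers were Fkbp14, a prolyl isomerase of the ER (-1.04), Ssr3, part of the TRAP complex at the translocon (-1.12), Sec16b, a scaffold of ER exit sites (-1.32), and Plod2, the lysyl hydroxylase of collagen telopeptides (-1.20). Sec23a, a coat protein of the vesicles that carry procollagen, had -0.55 and no call. Of these falls, that of Sec16b passed without each array in turn. Fkbp14 fell short of 2-fold without 1927 or 1920 (-0.95 each), Ssr3 did not pass without 1919, 1920 or 1928 (adjusted p = 0.14, 0.057 and 0.12), and Plod2 not without any single cartilage array (0.090 to 0.18). Of 5 other membrane-bound factors that S1P cleaves, none was called (median 0.07).

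**Figure D4:**
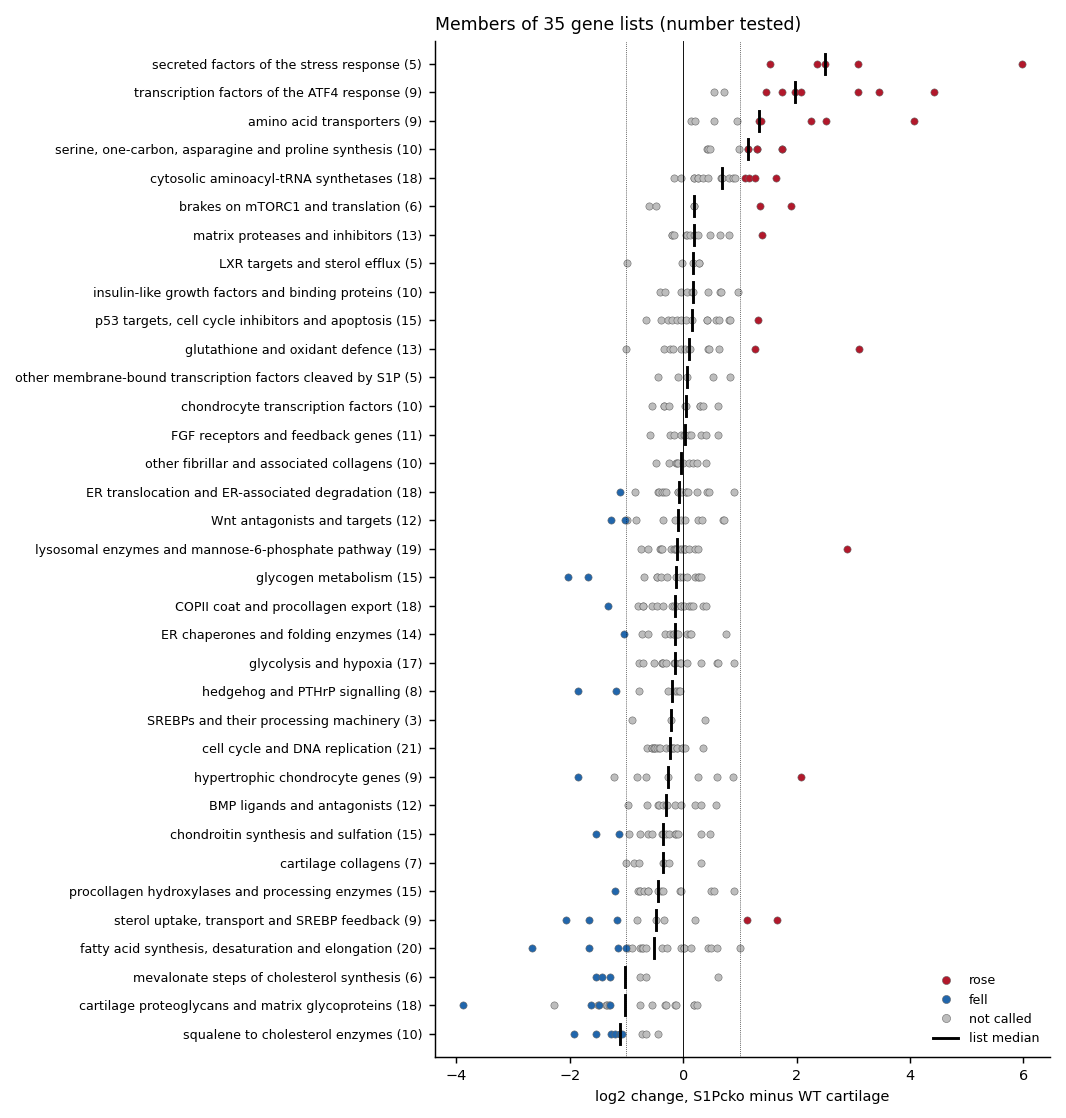
Log2 change between S1Pcko and WT cartilage (horizontal axis) of every tested member of 35 gene lists, ordered by list median (black bar), with risers in red, fallers in blue, uncalled genes in grey and dotted lines at 2-fold. The highest medians are those of secreted stress factors (2.50) and ATF4 factors (1.98), and the lowest those of squalene to cholesterol enzymes (-1.11), matrix glycoproteins and mevalonate steps (-1.03 each).

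Lysosomal enzymes, whose mannose-6-phosphate tag is added by an enzyme that S1P cleaves, had 1 call among 19 genes (median -0.11). It was Gpnmb, a membrane glycoprotein of lysosomes and melanosomes that is also made by osteoblasts and macrophages, at 6.03 and 5.69 in WT and 8.97 and 8.51 in S1Pcko (2.88, SE 0.21, adjusted p = 2.48e-05). Its other probe, undetected in WT, was called too, at least 1.81-fold higher. The 1 riser among 19 genes stands beside 1.26% of all genes tested that rose.

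Markers of other cell types in the dissected tips differed between the genotypes. In bulk RNA, fewer cells of a type and less RNA per cell cannot be told apart. For the counts below, 1.26% of all genes tested rose. Of 7 osteoblast markers 2 rose, Ibsp and Ifitm5 (7.25 and 7.33 against 9.37 and 9.40), Bglap (osteocalcin) had 2.19 without a call (adjusted p = 0.065), and Dmp1 was undetected. The summed linear signal of the list ranged from 14175 to 23569 in WT and from 22259 to 25702 in S1Pcko, so the genotypes overlapped in the sum. Of 5 osteoclast markers tested 1 rose, the matrix protease Mmp9 (1.39), and the sum was 2402 to 2641 in WT and 4181 to 4585 in S1Pcko, while Acp5, Calcr and 3 further markers were undetected on all 4 arrays. Mmp9 did not pass without any single cartilage array (adjusted p = 0.16 to 0.21) or long bone array 1923, 1929 or 1930 (0.072, 0.061 and 0.059). The part of these cells in the changes of Ibsp and Gpnmb was not tested.

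Epidermal genes were among the steepest of the falls, which covered 1.67% of all genes tested. Krtap13, a keratin-associated protein of hair, lay at 8.52 and 8.51 in WT and was undetected in S1Pcko, at least 10.9-fold lower (adjusted p = 8.75e-07). Lor, the cornified envelope protein loricrin, lay at 9.79 and 9.73 against 6.56 and 6.12 and fell by 3.42, and Lce1c and Lce1m, late envelope proteins, were at least 6.95-fold and 5.34-fold lower. With Kprp and Calm4, 6 of the 12 epidermal markers tested fell (median -1.34, -1.03 with bounds), and the sum of the list was 2522 to 2719 in WT and 952 to 976 in S1Pcko. The defining keratins of the skin were not among them: Krt1, Krt5 and Krt15 were undetected on all 4 arrays, Krt14 was detected on 1, and Krt10 had -0.72 (adjusted p = 0.35). Other skin genes went the other way: Cdsn rose (above), as did Krt17, a keratin named here after its value was seen (1.30, lost without any single cartilage array at an adjusted p of 0.078 to 0.14), and 4 of the 12 markers tested were higher without a call. The part of skin in these values was not tested.

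Of the blood lists, erythroid markers summed to 24361 to 25554 in WT and 17642 to 18263 in S1Pcko, and macrophage and granulocyte markers to 1503 to 1675 and 970 to 1073, without a call in either. In the second of these S100a8 had the lowest value, 8.75 and 8.38 against 5.74 and 5.82 (adjusted p = 0.19). S100b, taken as a Schwann cell marker and also a product of chondrocytes, fell by 1.94, as the 1 call among 7 nerve genes. Among all genes tested 1.67% fell. Joint surface and tendon, endothelial and skeletal muscle markers had medians of 0.06, 0.10 and -0.16, and in these lists Fmod was the 1 call. The sums of skeletal muscle were 75291 to 78915 in WT and 70274 to 76083 in S1Pcko.

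Entire long bones, which hold bone as well as epiphyseal cartilage, shared 66 of the 148 rises and 10 of the 197 falls. In long bone 93 genes rose (0.79%) and 53 fell (0.45%), so the shared genes made up 44.6% of the cartilage and 71% of the long bone rises, and 5.08% and 18.9% of the falls. The long bone calls used the adjusted p and 2-fold thresholds without the rule on rounds. They cover only genes detected in cartilage, so genes seen in long bone alone are missing. The 148 genes that rose in cartilage had a median change of 0.92 in long bone, against 1.37 in cartilage, and the 197 that fell had -0.28, against -1.30. Of the squalene to cholesterol enzymes none reached 2-fold in long bone (median -0.71), although all 10 were lower and 6 passed on the p alone, among them Sqle at -0.93 (adjusted p = 0.0046) and Msmo1 at -0.87 (adjusted p = 0.0040). Of the ATF4 factors 7 rose in long bone (median 1.42), but not the same 7, since Cebpg was among them and Cebpb was not. The difference between the tissues was tested in the same model, and it passed (adjusted p below 0.05 and 2-fold or more) for 55 genes (0.467%), of which 11 were risers of cartilage (7.43% of them), 27 were fallers (13.7%) and 17 had no call in cartilage. No gene of the cholesterol lists was among the 55, and Atf4, on 1 of its probes, was the 1 gene of the 6 ATF4 lists. The count lay between 19 and 27 without 1 array other than 1921 or 1922, at 259 without 1921 and at 261 without 1922, and it was 0 with the amplification rounds averaged (limma), where 500 genes had an unadjusted p below 0.05.

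The genes whose change was more positive in cartilage included Ibsp (by 2.46, adjusted p = 0.0045), Gpnmb (2.34, 0.0033), Ifitm5 (2.32, 0.027) and Mmp9 (2.69, 0.043), which are made by bone cells. In long bone Ibsp lay between 13.51 and 14.30 on all 6 arrays, far above its cartilage values on the same probe. Among those with a more negative change were Lor (-4.18, adjusted p = 1.15e-04), Krtap13 (-3.97, 5.47e-05), Sparc (-3.61, 6.87e-04), Ppp1r3b (-1.75, 0.036) and Lum (-1.56, 0.044). Krtap13 was below the lowest detected level in long bone of both genotypes (4.33 to 4.72), so its fall could be read in cartilage alone. Pdgfd, a platelet-derived growth factor, was undetected in S1Pcko cartilage (6.69 and 6.56 in WT), at least 2.95-fold lower, and in long bone it ran from 4.32 to 4.54 in WT and from 6.45 to 7.08 in S1Pcko. Pdgfd and Mmp9 were called in opposite directions in the tissues, since Mmp9 fell in long bone.

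**Figure D5:**
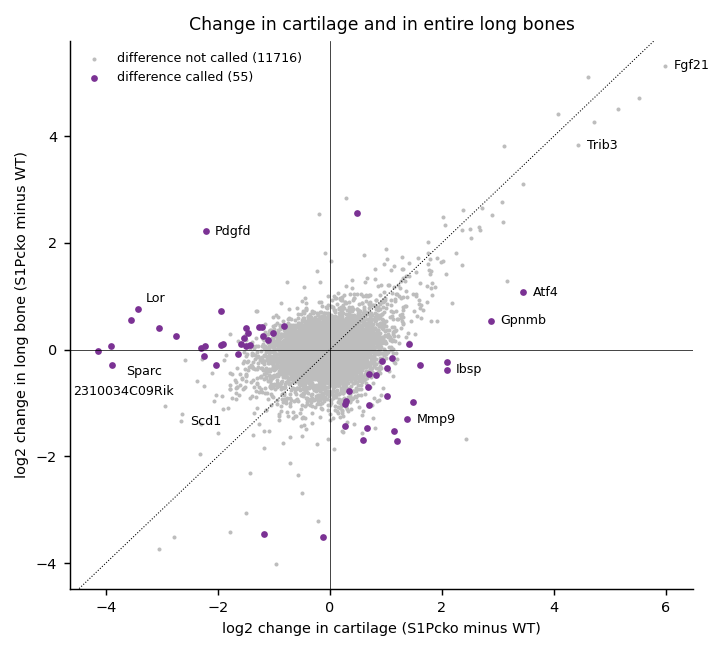
Log2 change between S1Pcko and WT in cartilage (horizontal axis) and in entire long bones (vertical axis), 1 point per gene, with the 55 genes whose change differed between the tissues in purple and the line of equal change dotted. Fgf21 and Trib3 lie near the dotted line, Atf4, Gpnmb, Ibsp and Mmp9 below it, and Sparc (-0.28) and 2310034C09Rik (-0.03) near 0 in long bone. The level of 2310034C09Rik was below 5.04 on every long bone array, so no change of it could be read there.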

How the data were processed

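Per the labels and the methods, RNA of E16.5 tissue was extracted with Trizol and RNeasy, amplified to biotinylated cRNA and hybridized to Illumina mouse BeadChips, 1 sample per array. The authors deposited, for each of 46643 probes and 12 arrays, the non-normalized signal intensity and a detection p-value. Their processed intensities of the same arrays served as an alternative. With limma 3.58.1 in R 4.3.3, background was corrected by neqc (negative controls inferred from the detection p-values, offset 16), followed by quantile normalization over the 12 arrays and a linear model with 4 groups (genotype by tissue) on 10 arrays, calvaria being left out. Tested on simulated data for the cartilage comparison (21477 probes), the fit called 3 of 50 probes changed 1.5-fold, 21 of 50 changed 2-fold, 50 of 50 changed 4-fold and 3 of 21277 unchanged ones. The simulation drew independent noise for each array, placed changes on bright probes only and left out the rule on both rounds. It held no spread between embryos and no deviation shared within a round, so these rates do not carry over to dim genes or to other embryos. Raw signal medians were 80.0 to 94.0, and 2 cartilage arrays per genotype limit the precision. Probes were named from the platform annotation (32794 with 1 symbol, 55 with several, 13794 with none). The members and gene lists were chosen with earlier results of these data known. Named genes are the 15 largest rises and falls changed 2-fold or more in each round, the members of each list (at most 4) that changed most, the SREBP machinery and the study's targets, and others given as list members. A level below detection in all arrays of a genotype gives a lower bound (at least N-fold). Alternatives covered background, scaling, filters, replicates, variance model, probes and leaving out each array.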

Additional observations from a re-analysis of the deposited data

Results flagged for a closer look

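The change between S1Pcko and WT differed between cartilage and entire long bones for 55 genes, of which those named in the text are given here, each by the test of the difference in the limma model (adjusted p below 0.05 and 2-fold or more). All values are the change in cartilage minus the change in long bone, on the log2 scale. Pdgfd had -4.43 and 2310034C09Rik -4.11. Among cornified envelope and hair genes, Lor had -4.18, Lce1c -4.11, Krtap13 -3.97, Lce1m -3.46, Lce1b -3.01, Kprp -2.29 and Calm4 -2.05. In long bone 2310034C09Rik, Krtap13, Kprp and Calm4 lay below 5.04 on every array of both genotypes. Lce1b, Lce1c and Lce1m did so on every long bone array except 1922 (5.28, 5.73 and 5.38). The differences of these genes therefore repeat the fall in cartilage and are no separate result about long bone. Among genes of matrix and metabolism, Sparc had -3.61, Gstk1 -2.12, Ppp1r3b -1.75 and Lum -1.56. S100b had -2.67 and Pisd-ps3 -2.33. Of the positive values, the largest was that of Gdi2 (3.38), which had no call in cartilage. The osteoclast genes Mmp9, Ocstamp and Ctsk had 2.69, 2.66 and 2.13, and the osteoblast genes Ibsp and Ifitm5 had 2.46 and 2.32. Gpnmb had 2.34, and Atf4 2.38 on 1 of its probes. Where a genotype was undetected in one tissue these fitted values depend on the background and are no bounds. With the amplification rounds averaged, the difference passed for 0 genes in limma (500 at an unadjusted p below 0.05).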

How the results depend on the processing

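None of the 345 called genes changed sign under the alternatives that tested them (84 were not tested when detection on all 4 arrays was required, and 1 at a detection p under 0.01). The alternatives of replicates, variance model and left-out arrays could not have changed a sign, because the genotypes of the called genes did not overlap. The counts of rises and falls were 96 and 123 with an offset of 50, 77 and 96 without background correction, and 98 and 86 without moderation of the variance, where the share of rises was 53.3% against 42.9%. They were 9 and 3 on the first-round arrays alone (75% rises, 5 genes of the lists) and 11 and 3 with rounds averaged (78.6%, 6 genes of the lists, against 70 in the fit reported). Leaving out 1 array gave 90 to 159 rises and 83 to 230 falls, with 54.9% rises without array 1919. The difference between tissues passed for 25 genes when probes had to be detected on all 4 arrays, 11 without moderation, 0 on first-round arrays or averaged rounds (612 and 500 at an unadjusted limma p below 0.05), and 19 to 261 without 1 array. Col2a1 reversed to -0.022 with the mean over its probes, and Gdi2, uncalled in cartilage, ran from -0.264 to 0.023 without 1 array. The cause was not tested, except that averaging and first-round arrays leave 1 cartilage value per genotype.

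Arrays of the same amplification round deviated together (r = 0.504 over 2 pairs). With the round as a replicate block, 153 genes rose and 208 fell on 10 arrays (167 and 272 on the 4 cartilage arrays), the difference passed for 49, all 98 named calls remained and Mbtps1 stayed at -0.22 (adjusted p = 0.62 and 0.21). Signals near background limit dim genes to bounds, and embryo and genotype cannot be told apart.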
